A study of Mus musculus with 3 samples.

Results

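Semaphorins are guidance proteins that steer axons, blood vessels and epithelial cells, and plexins are the receptors that carry their signal into the cell. Class 3 semaphorins are secreted and mostly act through a neuropilin, a co-receptor that binds the ligand and joins a class A plexin. Classes 4, 5 and 6 are transmembrane proteins, and Sema7a is held at the membrane by a lipid anchor. Dense DNA methylation near the start of a gene is a mark that often goes with a silent promoter, and guidance genes are among those known to carry it in colorectal tumours. The genes described here are set by a rule on symbols: every protein-coding autosomal RefSeq gene named as a semaphorin of class 3 to 7, as a plexin of type A to D, or as Nrp1 or Nrp2. The rule found 29 of 20661 genes. They comprised 20 semaphorins (7 of class 3, 6 of class 4, 2 of class 5, 4 of class 6 and Sema7a), 7 plexins (3 of type A, 2 of type B, Plxnc1 and Plxnd1) and both neuropilins. The rule itself uses no measured value. DNA was measured and not RNA, so none of the values below says whether a gene was expressed.

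DNA methylation was profiled in organoids of the mouse proximal colon by MBD-seq: beads carrying a polypeptide that binds methylated CpGs pull down DNA fragments, which are then sequenced. The organoids came from crypts of the first 2.5 cm of the proximal colon of male mice around 40 days old, from a line heterozygous for a Braf V600E allele that stays off until Cre recombinase acts (Braf+/LSL). A lentivirus brought Cre into the cells, or only its backbone as control, called EV. One sample name stem, BRAF3, is shared by all 3 libraries, and the labels give neither the number of mice behind it nor whether it is a single clone. All had 5 months of culture and then 3 weeks in their final medium. The EV library and the Braf full medium library were grown in full medium with conditioned Wnt3a, R-spondin and Noggin, EGF and B27. The Braf Base medium library came from organoids with Cre that had been selected to grow in Base medium, which leaves out the niche factors of stem cells. With 1 library in each group, nothing below could be checked against replicates and no test across conditions was possible.

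Values are normalised coverage: the number of read overlaps in a 200-bp bin times the size of 1 overlap on the authors' deposited scale. Estimated reads were 5041726 in EV, 8648828 in Braf full and 5985362 in Braf Base medium. The Braf full medium library stood apart from the other two in its background. No read overlapped 87.2% of bins in EV and 83.0% in Braf Base medium, against 43.3% in Braf full medium, and coverage outside covered regions was 0.00704, 0.00687 and 0.0449 in those libraries. Low values in the Braf full medium library therefore stand beside a background more than 5 times that of EV. Around each gene end, coverage was averaged over the bins within 1 kb to each side. Pairs of libraries were compared by a log2 ratio after adding 0.0597, the average bin coverage of the 3 libraries, as a pseudocount to each. Windows at 1 or more were called gained and those at -1 or less lost, provided that the higher library had at least 0.119, which is 2 times that average. Such ratios understate changes of low windows. Folds are plain ratios of coverage, given with exact (Clopper-Pearson) 95% intervals from estimated reads that cover counting error only and compare libraries rather than conditions.

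RefSeq start sequences on the GRCm38.p6 build, from 250 bases before to 50 bases after a start, were found for 24 of the 29 genes. Plxna1, Plxna4, Sema3b, Sema3f and Sema6a had no entry. The pull-down captures methylated CpG, so the CpGs of a start are the letters that the measurement can read. The first 4 starts are printed because the window around them gained coverage in a Braf library, and the start of Sema3c because it held the most CpGs of any of these genes and had almost no coverage in any library. Sema3c was picked after its values were seen. Capitals mark each CG, which reads the same on both strands. Each sequence runs from 5′ to 3′ on the strand of its gene. The Sema6c start lies at chr3:95160170-95160469 on the forward strand, the Sema6d start at chr2:124089719-124090018 on the forward strand, the Sema5b start at chr16:35541112-35541411 on the forward strand, the Plxnc1 start at chr10:94944796-94945095 on the reverse strand and the Sema3c start at chr5:17574566-17574865 on the forward strand.
Sema6c: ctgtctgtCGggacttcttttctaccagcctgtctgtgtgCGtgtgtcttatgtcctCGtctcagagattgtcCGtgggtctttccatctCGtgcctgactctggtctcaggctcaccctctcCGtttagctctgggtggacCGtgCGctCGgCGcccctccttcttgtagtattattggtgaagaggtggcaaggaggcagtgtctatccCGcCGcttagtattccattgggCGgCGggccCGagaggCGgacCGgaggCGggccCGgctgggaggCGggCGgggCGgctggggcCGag
Sema6d: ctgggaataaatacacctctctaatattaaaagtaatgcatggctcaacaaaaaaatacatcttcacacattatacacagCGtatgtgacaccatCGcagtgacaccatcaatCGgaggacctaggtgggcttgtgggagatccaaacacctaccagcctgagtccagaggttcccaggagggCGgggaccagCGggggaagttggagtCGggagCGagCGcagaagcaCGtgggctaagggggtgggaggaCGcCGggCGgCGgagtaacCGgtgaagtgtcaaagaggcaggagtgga
Sema5b: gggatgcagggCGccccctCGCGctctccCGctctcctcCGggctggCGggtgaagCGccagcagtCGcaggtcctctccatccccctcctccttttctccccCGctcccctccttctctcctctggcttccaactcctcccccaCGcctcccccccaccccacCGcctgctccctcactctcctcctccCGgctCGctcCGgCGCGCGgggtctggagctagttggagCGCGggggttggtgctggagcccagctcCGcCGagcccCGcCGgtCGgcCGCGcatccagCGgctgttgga
Plxnc1: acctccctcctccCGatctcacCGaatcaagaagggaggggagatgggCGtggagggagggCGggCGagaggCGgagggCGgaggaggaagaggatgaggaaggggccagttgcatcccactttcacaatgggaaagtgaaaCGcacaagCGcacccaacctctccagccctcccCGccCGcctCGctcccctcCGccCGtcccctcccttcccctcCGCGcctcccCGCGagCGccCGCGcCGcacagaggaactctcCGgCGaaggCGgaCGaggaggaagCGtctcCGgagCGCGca
Sema3c: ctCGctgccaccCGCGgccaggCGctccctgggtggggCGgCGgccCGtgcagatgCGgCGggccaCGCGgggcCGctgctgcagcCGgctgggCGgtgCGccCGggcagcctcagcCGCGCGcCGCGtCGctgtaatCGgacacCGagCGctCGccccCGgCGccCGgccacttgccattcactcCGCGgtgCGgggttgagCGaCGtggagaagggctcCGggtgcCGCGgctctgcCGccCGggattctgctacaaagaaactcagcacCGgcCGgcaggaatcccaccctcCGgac

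These 300 bases held 23 CpGs at Sema6c, 14 at Sema6d, 27 at Sema5b, 30 at Plxnc1 and 42 at Sema3c. A CG was present in 95.6% of the 20084 RefSeq starts of autosomal protein-coding genes, whose median was 14 CpGs (range 0 to 67). The 35 starts of the semaphorin, plexin and neuropilin genes had a median of 15 CpGs (range 2 to 42). Of these, 16 (45.7%) held 20 CpGs or more, against 37.1% of all starts.

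Most of these genes had little methylated DNA at their ends in any library. Of 58 ends, 24 had no overlap in EV, 18 had none in Braf Base medium and none was empty in Braf full medium. Median coverage over the 58 ends was 0.00913 in EV, 0.0624 in Braf full and 0.00674 in Braf Base medium. Over the 41322 ends of all genes it was 0.00913, 0.0579 and 0.00674, so the middle of the family followed that of the genome in each library. A window without overlaps allows a coverage of up to 0.0340 in EV, 0.0323 in Braf full and 0.0251 in Braf Base medium (3 reads each). The minimum of 0.119 was reached by 9 ends (15.5%) in EV, 12 (20.7%) in Braf full and 11 (19%) in Braf Base medium, against 11.9%, 16.5% and 12.8% of all ends. Where the strand was known, 1 of 24 upstream ends (4.17%) reached the minimum in EV and 4 (16.7%) in each Braf library, beside 9.64% of all upstream ends in EV, 15.6% in Braf full and 12.2% in Braf Base medium. Of 24 downstream ends 6 (25.0%) did so in every library, beside 13.5%, 16.8% and 12.6% of all. The difference between upstream and downstream ends was not tested. In the plot of coverage at each end, 45 of the 58 ends lie below the minimum in every library.

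**Figure D1:**
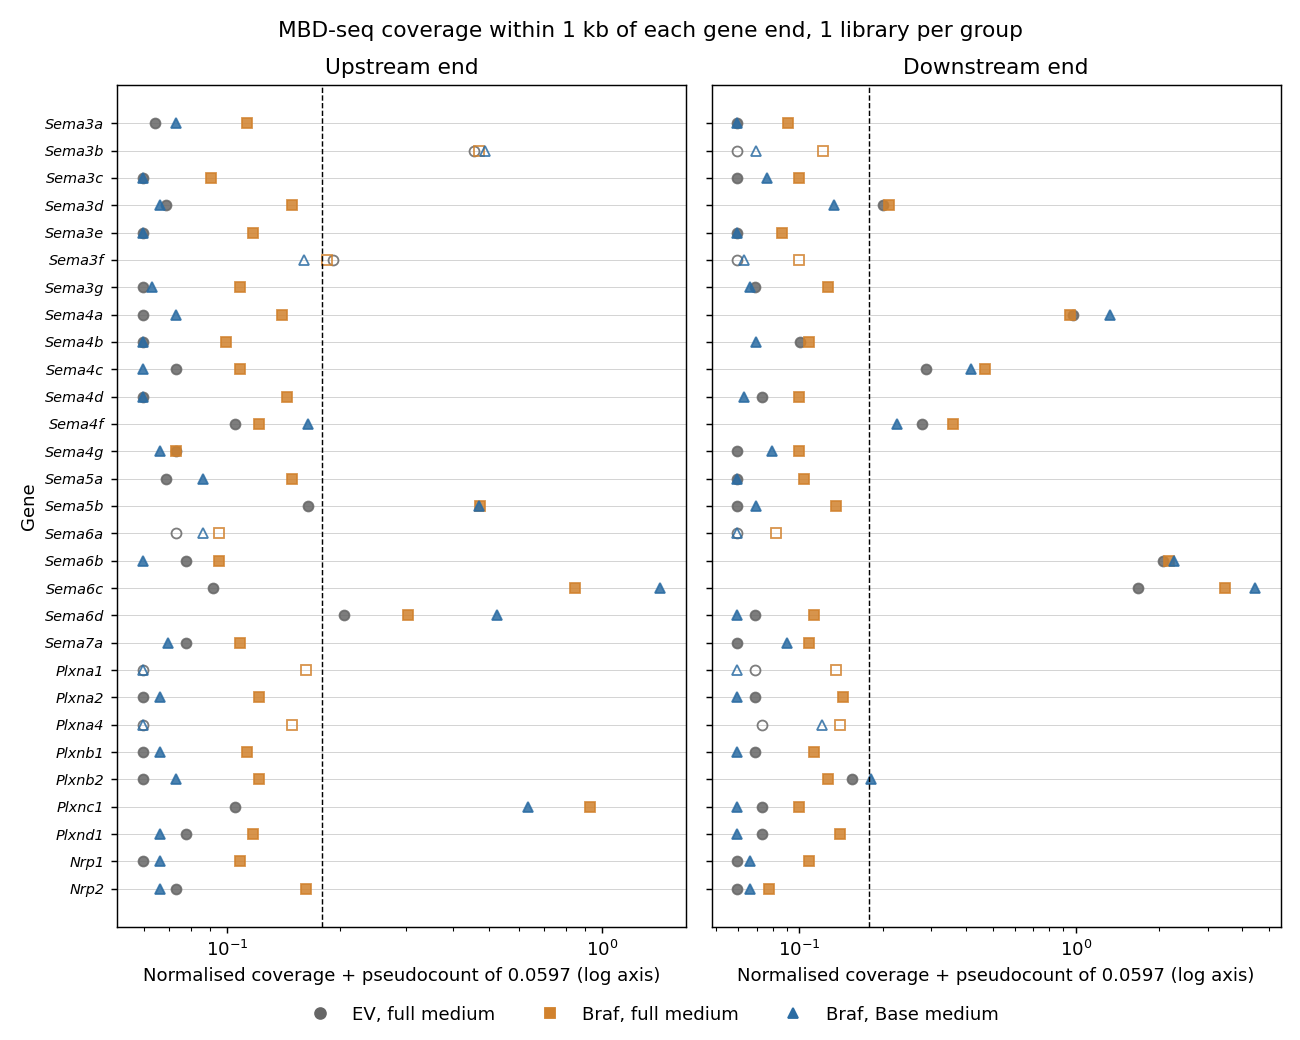
Mean normalised coverage within 1 kb of the upstream end (left panel) and downstream end (right panel) of the 29 genes in each of the 3 libraries, plus a pseudocount of 0.0597, on a log axis; filled marks are ends of known direction, and open marks are the low (left) and high (right) ends of the 5 genes without a RefSeq start entry. The dashed line is the minimum of 0.119 plus the pseudocount, and the Braf marks of Plxnc1, Sema5b, Sema6c and Sema6d stand right of their EV marks at the upstream end.

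Gains against EV were called in a Braf library at 5 ends of 4 genes, 3 semaphorins and 1 plexin, and 25 genes had no called end. None of the 58 ends was called lost in any of the 3 comparisons. Against EV, 4 ends of 3 genes gained in Braf full medium, which is 6.90% of the 58 ends beside 4.63% of all ends. The count was also 4 with each library's background subtracted, beside 2.67% of all ends. In Braf Base medium 5 ends of 4 genes gained against EV, 8.62% beside 3.23% of all ends. Loss against EV was called at 0.603% of all ends in Braf full and at 1.4% in Braf Base medium. Between the Braf libraries, no end of these genes was called, while 1.03% of all ends were higher and 2.94% lower in Base medium. With libraries scaled to equal totals 5 ends were called higher in Base than in full medium (5.11% of all ends): both ends of Sema6c, the upstream end of Sema6d and the downstream ends of Sema4a and Plxnb2. The median log2 ratio of the 58 ends was 0.74 for Braf full medium over EV (0.66 over all ends), -0.67 for Braf Base over Braf full medium (-0.61) and 0.04 for Braf Base medium over EV (0.00). The comparisons share libraries and are not independent of each other. A higher coverage can come from more cells with the mark or from more marked DNA in each cell, which cannot be told apart in bulk DNA.

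The largest gain among these ends, as deposited and within 1 kb, was at the upstream end of Sema6c, which encodes a transmembrane ligand of class 6, a class that signals through type A plexins. Its upstream end, at position 95160420 of chromosome 3, had a coverage of 0.0319 in EV, 0.788 in Braf full and 1.37 in Braf Base medium, from an estimated 3, 73 and 164 reads. Both Braf libraries were thus far above EV, and Base medium was above full medium as deposited. The rise over EV was 24.7-fold in full medium (interval 7.60 to 115) and 42.8-fold in Base medium (13.5 to 197), and Base medium was 1.73-fold above full medium (1.32 to 2.33). On the log2 scale these were 3.21, 3.96 and 0.75, of which the last was not called. That last ratio was 0.066 with coverage divided by local dosage, an alternative chosen after seeing the data, and -0.15 with a window of 500 bp to each side. The EV value is close to the 0.0340 that 3 reads give, so the size of both folds over EV is poorly fixed. In full medium the ratio was below that of Plxnc1 with a pseudocount of 4 times the mean (1.92 against 1.96), a window of 500 bp (0.75 against 2.50) and division by local dosage (3.09 against 3.21), and in Base medium with the 500 bp window (0.60 against 2.14).

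Sema6c also gained at its downstream end, which had the highest coverage of the 58 ends in both Braf libraries, while in EV that of Sema6b was higher. Coverage there, at position 95174050, was 1.62 in EV, 3.41 in Braf full and 4.37 in Braf Base medium (143, 317 and 524 reads). The Braf libraries were 2.10-fold (1.72 to 2.58) and 2.69-fold (2.24 to 3.27) above EV, log2 ratios of 1.04 and 1.40. This end was above the minimum in EV too, unlike the upstream end of the same gene. The first of these calls was near its threshold and ended when libraries were scaled to equal totals (0.36), with a pseudocount of 4 times the mean (0.97) and with a window of 2 kb to each side (0.39). The call in Base medium ended with the 2 kb window (0.91) and with division by local dosage (0.66).

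Sema6d, a further class 6 ligand with a role in heart development through Plxna1, had its highest coverage in Braf Base medium. Its upstream end at position 124089943 of chromosome 2 had a coverage of 0.146 in EV, 0.245 in Braf full and 0.465 in Braf Base medium (13, 23 and 56 reads). Full medium was 1.68-fold above EV with an interval that includes no change (0.816 to 3.61), and Base medium was 3.18-fold above EV (1.71 to 6.33) and 1.90-fold above full medium (1.14 to 3.22). The log2 ratios were 0.57, 1.35 and 0.78, so only Base medium against EV was called. A pseudocount of 4 times the mean took this below the threshold (0.87), and equal totals took Base over full medium above it (1.53). It was the only one of the 24 upstream ends that reached the minimum in EV.

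Sema5b encodes a transmembrane ligand with thrombospondin repeats outside the cell. Coverage at its upstream end, at position 35541154 of chromosome 16, was 0.105 in EV, 0.414 in Braf full and 0.411 in Braf Base medium (9, 38 and 49 reads). As deposited, the Braf libraries were alike in level, 3.95-fold (1.91 to 9.43) and 3.91-fold (1.95 to 9.29) above EV. Their log2 ratios over EV were 1.53 and 1.52. A pseudocount of 4 times the mean took both under the threshold (0.93 and 0.92), as equal totals did for full medium (0.97). The log2 ratio of Base over full medium was -0.01 as deposited, 0.77 with equal totals and 0.38 with a window of 500 bp.

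Plxnc1 was the only receptor with a called end. It encodes the plexin that binds Sema7a. Its upstream end at position 94945015 of chromosome 10 had a coverage of 0.0456 in EV, 0.869 in Braf full and 0.576 in Braf Base medium (4, 81 and 69 reads). Here full medium was the higher of the Braf libraries as deposited, and with equal totals Base medium was (log2 ratio of Base over full medium 0.28). The rise over EV was 19-fold in full medium (7.23 to 72.3) and 12.6-fold in Base medium (4.75 to 48.0), log2 ratios of 3.14 and 2.59, and the log2 ratio of Base over full medium was -0.55. Both gains were called under each of the 10 other settings tried. Sema7a, its ligand, had a highest coverage of 0.0490 over its ends and libraries.

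No end of another receptor was called. With a window of 2 kb to each side, though, the upstream end of Plxnd1 gained in full medium over EV (1.20) and was also called lost in Base over full medium. Over the 4 ends of Nrp1 and Nrp2 the highest coverage was 0.102, at the upstream end of Nrp2 in Braf full medium, where EV had 0.0137 and Braf Base medium 0.00674. Both ends of Nrp1 had no overlap in EV, 0.0490 in Braf full and 0.00674 in Braf Base medium. The 6 ends of the type A plexins stayed at or below 0.102 and those of Plxnd1, the receptor of Sema3e, at or below 0.0802. Among the type B plexins only the downstream end of Plxnb2, a receptor of class 4 semaphorins, reached the minimum. It had 0.0958 in EV, 0.0668 in Braf full and 0.121 in Braf Base medium, with no call.

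With that end, 8 ends reached the minimum in some library without a call. The downstream end of Sema6b had 2.0 in EV, 2.12 in Braf full and 2.21 in Braf Base medium. The downstream end of Sema4a, a ligand known from immune cells, had 0.917, 0.895 and 1.27 in the same order. The low end of Sema3b, a secreted ligand known as a tumour suppressor candidate in human lung cancer, had 0.397, 0.410 and 0.428, in a window that also reaches Lsmem2. The spread between libraries at these 3 ends was below 1.5-fold, although the Sema4a interval of Base over full medium (1.08 to 1.88) lies above 1. The relative background near that Sema4a end was also 2.04-fold higher in Base than in full medium. Division by local dosage took its log2 ratio of Base over full medium from 0.48 to -0.47. The spread was wider at 3 downstream ends: Sema4c had 0.228, 0.410 and 0.357, Sema4f 0.219, 0.298 and 0.165, and Sema3d 0.141, 0.151 and 0.0741. The Sema4c interval of full medium over EV (1.02 to 3.27) also lies above 1. The low end of Sema3f, whose receptor is Nrp2, had 0.132, 0.125 and 0.101. None of these ends is an upstream end of known direction. None of the 5 called windows reaches into another gene of the table.

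Bin by bin, the gains formed narrow blocks just inside the genes or, at Plxnc1, across the end. At Sema6c the bins at 5 times the mean (0.298) or more ran from 581 to 1380 bp past the upstream end, a stretch of 800 bp at chr3:95161001-95161800. Its mean coverage was 0.100 in EV, 2.62 in Braf full and 4.45 in Braf Base medium, and its highest bin had 0.151, 3.97 and 6.22. The printed 300 bases lie outside this block. The 200-bp bins that they touch had a mean coverage of 0 in EV, 0.0163 in Braf full and 0.0494 in Braf Base medium. Values given for printed bases are such means, so they also take in DNA beside the 300 bases. With a window of 500 bp to each side the Sema6c gains were accordingly not called (0.75 and 0.60). At Plxnc1 the block was 1800 bp long, at chr10:94943601-94945400, and spanned the end. It had 0.0613 in EV, 1.49 in Braf full and 0.943 in Braf Base medium, with its highest bin centred 915 bp inside the gene (0.151, 3.92 and 2.19). The bins touched by the printed Plxnc1 bases, within that block, had 0.0335, 0.588 and 0.321.

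The blocks at Sema5b and Sema6d began close to the end. At Sema5b it ran from 47 to 1046 bp past the end, at chr16:35541201-35542200, with 0.211 in EV, 0.823 in Braf full and 0.830 in Braf Base medium. The highest bin was centred 546 bp past the end in full medium and 346 bp past it in Base medium. Over the bins touched by the printed Sema5b bases the Braf libraries differed, with 0.301 in EV, 0.408 in full medium and 0.938 in Base medium. One of them, centred 346.5 bp past the end, holds few of these bases and had 0.402, 0.686 and 1.30. At Sema6d the block ran from 58 to 857 bp past the end, at chr2:124090001-124090800, with 0.376, 0.625 and 1.11 in EV, Braf full medium and Braf Base medium. The bins touched by the printed Sema6d bases had 0.117, 0.0980 and 0.506, a rise in Base medium only. Most of that Base medium value came from the bin centred 157.5 bp past the end (0.251, 0.245 and 1.15). That bin holds few of the printed bases, so the rise cannot be placed on them. The bins touched by the printed Sema3c bases had 0, 0.0490 and 0.

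At the downstream end of Sema6c the block was 2000 bp long, at chr3:95172001-95174000, inside the gene. Its mean was 5.51 in EV, 7.16 in Braf full and 10.5 in Braf Base medium. The change lay on the side toward the gene's end. Counting distances inside the gene as negative, the bin centred at -1349.5 bp had 10.7 in EV, 10.2 in Braf full and 15.2 in Braf Base medium, whereas the bin centred at -349.5 bp had 1.05, 6.03 and 7.67. The block thus reached closer to the end in both Braf libraries than in EV, as the profile of this end shows.

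**Figure D2:**
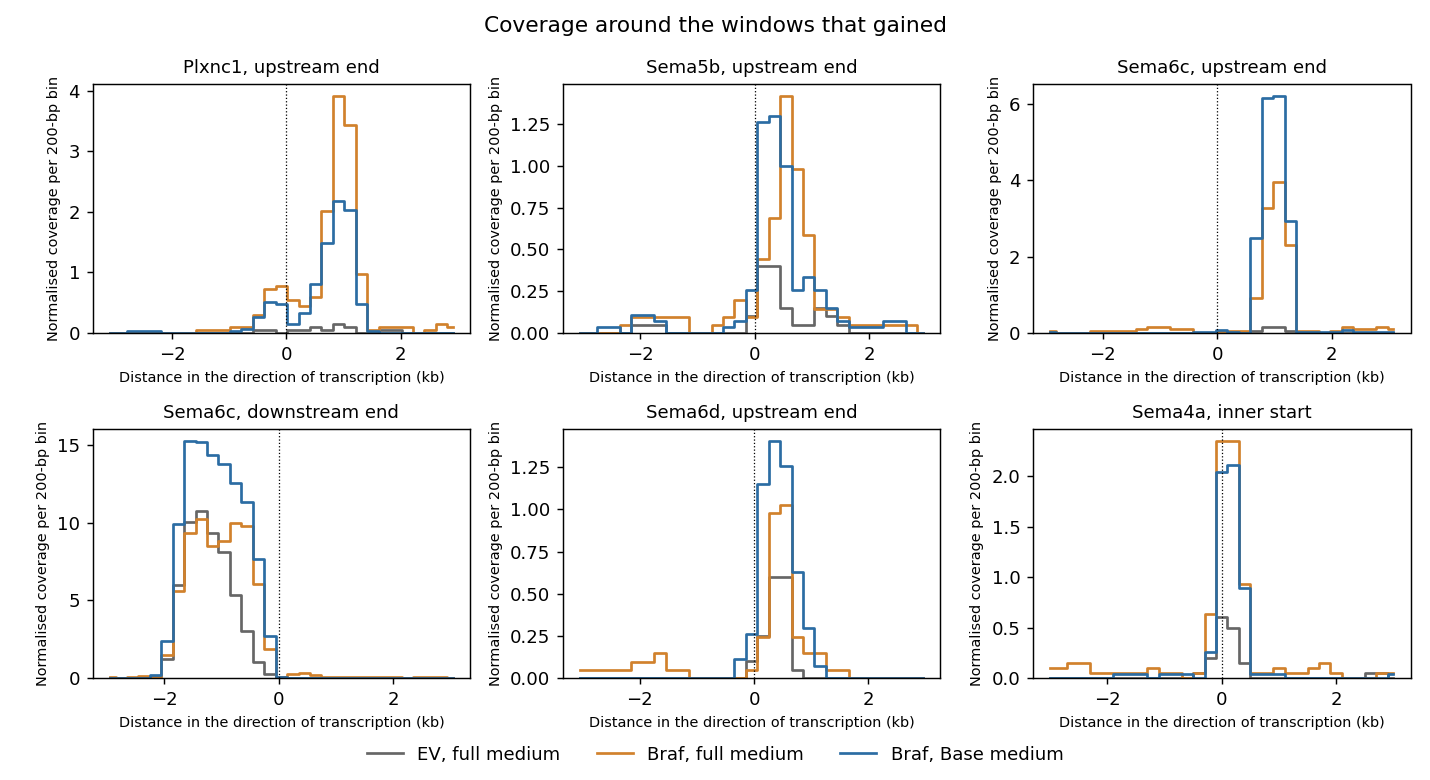
Normalised coverage of each 200-bp bin against distance in the direction of transcription (kb) from the 5 called gene ends and from an inner start of Sema4a, for the 3 libraries; each panel has its own vertical scale. The Braf lines form a block just inside the gene at Sema5b, Sema6c and Sema6d, and across the end at Plxnc1. EV is low in the blocks of Plxnc1 and Sema6c. It is raised, though less than the Braf lines, in those of Sema5b (mean 0.211) and Sema6d (mean 0.376). At the downstream end of Sema6c all 3 lines are high from about 2 kb before the end.

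Starts inside a gene added Sema4a to the genes with a gain. Of 35 RefSeq starts, 5 starts of 4 genes gained in Braf full medium against EV (14.3%, beside 6.8% of all 20084 starts) and 6 starts of 5 genes in Braf Base medium (17.1%, beside 5.56%). No start was lost. Those not yet named are a pair of inner Sema4a starts at positions 88458884 and 88459101 of chromosome 3, which hold 14 and 5 CpGs and share most of their window. The window of the second had 0.137 in EV, 0.601 in Braf full and 0.502 in Braf Base medium (12, 56 and 60 reads). The rise over EV was 4.39-fold (2.35 to 9.09) and 3.67-fold (1.96 to 7.52). The block behind it, 800 bp at chr3:88458601-88459400, had 0.364, 1.57 and 1.32. The upstream start of Sema4a, at position 88461182, had 0, 0.0802 and 0.0135.

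The starts were grouped by their CpG count, without a test. Among the 16 starts with 20 CpGs or more, none reached the minimum in EV and 3 did in each Braf library, namely those of Plxnc1, Sema5b and Sema6c. The other 13 of these CpG-rich starts stayed below it in every library. Among 6 starts with 10 to 19 CpGs, 2 reached the minimum in every library, those of Sema6d and Sema4a. Of 13 starts with fewer than 10, 1 did, the second inner start of Sema4a. The Sema3c window, with the most CpGs, had 0 in EV, 0.0312 in Braf full and 0 in Braf Base medium.

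**Figure D3:**
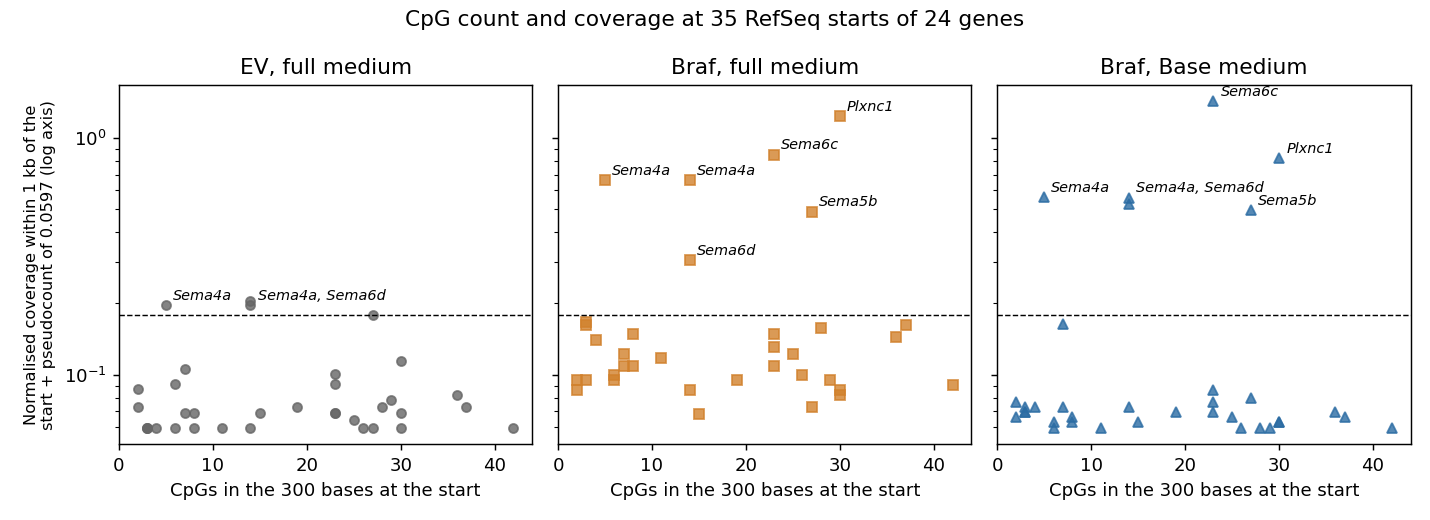
Mean normalised coverage within 1 kb of each of 35 RefSeq starts of 24 genes, plus a pseudocount of 0.0597 (log axis), against the number of CpGs in the 300 bases at that start, with 1 panel per library. The dashed line is the minimum of 0.119 plus the pseudocount, and named points lie above it: 3 in EV, 6 in Braf full and 6 in Braf Base medium.

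Sema6c and Sema4a lie on chromosome 3 in a stretch whose background was raised in Braf Base medium. Coverage of uncovered regions within 500 kb of the Sema6c upstream end was 0.00779 in EV, 0.0510 in Braf full and 0.0129 in Braf Base medium, and near the inner Sema4a start 0.00968, 0.0541 and 0.0166. Set against each library's own genome background, the Base medium level was 1.69-fold that of EV near Sema6c and 1.76-fold near Sema4a. Copy number was not tested. With each library's coverage divided by its local background relative to its own genome background (local dosage), the Sema6c upstream end kept log2 ratios over EV of 3.09 in full medium and 3.16 in Base medium. Its downstream end fell to 0.66 in Base medium and was no longer called, and the second inner Sema4a start, with a log2 ratio of 1.51 before, fell to 0.75. The Sema6d ratio of Base over full medium became 1.35 and was called.

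Inside the gene bodies, more than 1 kb from both ends, the pattern against EV was the opposite of that at the ends in Braf Base medium. This was not particular to these genes: over all genes 3.23% of ends gained and 1.4% were lost, and segments went the other way. The 29 genes gave 3798 segments of 1 kb, with a mean coverage of 0.0450 in EV, 0.0792 in Braf full and 0.0435 in Braf Base medium (0.0535, 0.0868 and 0.0508 over all 944444 segments). In Braf Base medium 31 segments of 14 genes were lost against EV and 10 of 9 genes gained, 0.816% and 0.263% of the segments beside 1.03% and 0.302% of all segments. In Braf full medium 92 segments of 23 genes gained and 14 of 10 genes were lost, 2.42% and 0.369% beside 2.84% and 0.45%. Between the Braf libraries 96 segments were lower in Base medium and 3 higher, 2.53% and 0.0790% beside 3.12% and 0.143%. All 6 shares were below those of the genome. Only 10 of the 92 gains in full medium reached 0.298, beside 0.210% of all segments that gained at that level. With each library's background subtracted 27 were called, beside 0.735% of all segments. With libraries scaled to equal totals the direction turned: 20 segments gained and 42 were lost in full medium against EV (0.580% and 1.67% of all segments), and 39 were higher and 22 lower in Base than in full medium (1.59% and 0.578%). Of the 31 losses in Base medium 15, in 10 genes, reached 0.298, and of the 10 gains 6, in 5 genes. Over all segments 0.496% were lost and 0.188% gained at that level.

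The plot of body stretches shows those that reach 0.298, at most 2 per gene, and holds 12 lost stretches of 9 genes. Segments were also lost in other genes, 3 in Sema5b, 2 in Sema6b, 2 in Sema6c and 1 in Sema6d among them. Plxna4, a receptor that joins neuropilins in the response to Sema3a, had a segment at chr6:32196001-32197000 with 0.763 in EV, 0.333 in Braf full and 0.0963 in Braf Base medium, a Base to EV ratio of 0.126 (0.0361 to 0.308). Its segment at position 32185001 had 0.361, 0.176 and 0.0370. Both fell in the same order of libraries. Sema3g, a secreted ligand of the vasculature, had 0.351, 0.201 and 0.0333 over chr14:31227001-31229000 and 0.452, 0.186 and 0.0741 in the segment at 31221001. Plxnd1 had 0.780, 0.673 and 0.237 over 3 segments at chr6:115962001-115965000, a ratio of 0.304 (0.205 to 0.449) from 94, 85 and 39 reads. In Sema4g, a class 4 ligand, the segment at 44998001 of chromosome 19 had 0.693, 0.323 and 0.185 and the segment at 45001001 had 0.452, 0.186 and 0.178.

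Single lost segments of the same kind were found in Sema4f (0.422 in EV, 0.265 in Braf full and 0.119 in Braf Base medium), in Sema3f (0.813, 0.568 and 0.311), 103 kb inside Plxnc1 (0.974, 0.578 and 0.400) and 165 kb inside Sema3d (1.21, 0.902 and 0.571). As deposited, Braf full medium lay between EV and Braf Base medium in 11 of these 12 stretches. The exception was in Plxnb2, with 0.311 in EV, no overlap in Braf full and 0.0445 in Braf Base medium. The stretches were picked for a low Base medium value beside EV, so a middle place for full medium says little. The order can differ with libraries scaled to equal totals, which was not examined for stretches. Plxnc1 and Sema3d held changes in both directions. The gained stretch of Plxnc1, at chr10:94943001-94944000, overlaps its upstream block and is not separate from that gain. It went from 0.0402 in EV to 0.931 in Braf full and 0.511 in Braf Base medium. A segment 180 kb inside Sema3d went from 0.371 to 0.686 and 0.852. Nrp2, Sema5b and Sema6d also had segments called in both directions in Base medium against EV.

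The plot also holds body gains against EV in Base medium in Nrp2, Sema5b, Plxna1 and, around its inner starts, Sema4a (0.151, 0.657 and 0.548). The gained segments of Nrp2, Sema3e, Plxnb1 and Sema6d were below 0.298 in both EV and Base medium. Nrp2 had its gain 3.68 kb past its start, at chr1:62707001-62708000, with 0.0301 in EV, 0.353 in Braf full and 0.252 in Braf Base medium. With 1 read in EV the Base to EV ratio of 8.36 had an interval from 1.57 to 436. Sema5b had 0.115, 0.534 and 0.315 over chr16:35659001-35661000. Plxna1 had 0.221, 0.294 and 0.541 in the segment at position 89354001 of chromosome 6. Some segments changed in Braf full medium alone. Plxnd1 had 0.0703, 0.549 and 0.170 about 1.34 kb inside its upstream end, and Sema7a had 0.131, 0.343 and 0.0667 near its downstream end. Sema4d, a class 4 ligand that binds Plxnb1, had 0.904, 0.363 and 1.07 in its segment at 51779001, low in full medium between similar levels in EV and Base medium. The body of Nrp1 had no segment at 0.298 or more in any library.

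**Figure D4:**
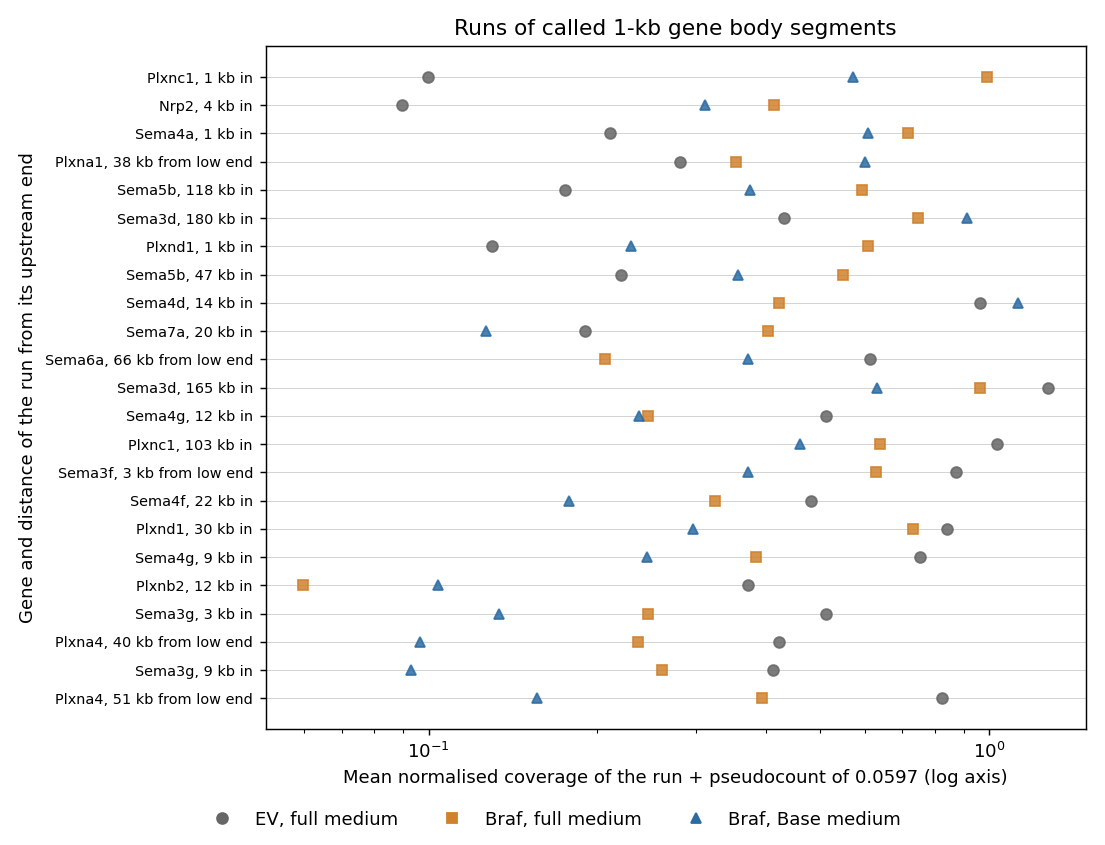
Mean normalised coverage in each library, plus a pseudocount of 0.0597 (log axis), of 23 stretches of called 1-kb gene body segments in 16 genes that reach 0.298 and were called against EV in either Braf library, at most 2 stretches per gene, sorted by the log2 ratio of Braf Base medium over EV. Labels give the rounded distance from the upstream end, or from the low end where the direction is not known; 12 stretches were called lost and 6 gained in Base medium against EV.

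Among 48 genes that act with semaphorins and their receptors, a list drawn from background knowledge, gains against EV outnumbered losses at the ends, as they do over all ends. Of 96 ends, 5 gained in Braf full and 8 in Braf Base medium, with none lost (5.21% and 8.33%, beside 4.63% and 3.23% of all ends). The median log2 ratios were 0.72 and 0.00. Between the Braf libraries 2 ends were higher and 1 lower in Base medium (1.03% and 2.94% of all ends), with a median of -0.70. Some called ends belong to genes of collapsin response mediator proteins, cytoplasmic proteins that pass the Sema3a signal to microtubules. Dpysl3 had 0.0319 in EV, 0.864 in Braf full and 1.10 in Braf Base medium at its high end, and Dpysl4 had 0.155, 1.21 and 1.32 at its low end. Crmp1 had 0.757, 0.757 and 2.88 at its upstream end, a rise in Base medium only, and Dpysl2 had 0.0456, 0.0624 and 0.168 at its high end. No end of Dpysl5, of the same family, was called.

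The VEGF receptor genes Flt1 and Kdr, whose products share neuropilins as co-receptors, also gained at their upstream ends. Flt1 had 0.00913 in EV, 0.610 in Braf full and 0.583 in Braf Base medium, and Kdr had 0.0137, 0.20 and 0.478. Kdr was above full medium in Base medium too, 2.39-fold (1.36 to 4.14). Mical1, an oxidase that binds class A plexins and acts on actin, had 0.744, 1.49 and 1.55, and Nrcam, an adhesion molecule found in semaphorin receptor complexes, had 0, 0.0490 and 0.152. The downstream end of Furin, a protease that cleaves class 3 semaphorins, had 0.0137, 0.143 and 0.0606 and was called in full medium only. The downstream end of Crmp1 had 0.114, 0.147 and 0.0337 and was the 1 end called lower in Base than in full medium.

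The tissue label could be checked only through DNA. Among marker genes of colon epithelium 1 of 7 upstream ends reached the minimum in EV, and among those of other cell types none of 4 for fibroblasts and smooth muscle, none of 2 for endothelium, 1 of 2 for neural and glial cells and none of 2 for immune cells. The highest marker end in EV, with 1.77, was in the neural and glial list. These counts are too small to tell cell types apart.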

How the data were processed

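DNA (100 to 200 ng, per the labels' protocols) was sonicated to 200 to 400 bp, enriched for methylated fragments and read from 1 end for 50 bp. The submitters' processing notes name Bowtie2 and mm10. How reads became bin values is not stated there. The authors deposited log2 values for 12313737 bins of 200 bp on chromosomes 1 to 19. Raising 2 to a deposited log2 value gave 0.0153 plus whole multiples (tolerance 0.001) of a step, 0.0502 in EV, 0.0490 in Braf full and 0.0370 in Braf Base medium. Overlaps times the step were taken as coverage, and reads were estimated at 2.49, 2.42 and 2.48 overlaps each. Gene ends and starts came from RefSeq tables on GRCm38.p6, the assembly mm10 stands for. Called ends were given for every gene of the family, in bodies at most 2 stretches per gene, and of the pathway list only called ends. The symbol rule uses no measurement, but the family and the lists were picked for description with earlier results of these data known. The calling code was tested on simulated data. Scaling, background, pseudocount, minimum and window were varied. Python 3.11.15, numpy 2.4.6, pandas 2.3.3, scipy 1.17.1 and matplotlib 3.10.9 were used.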

Additional observations from a re-analysis of the deposited data

How the results depend on the processing

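Each group held 1 library, so spread between organoid lines is unknown, and depth limits ends with few EV reads most. No paired analysis was possible because each group held 1 library. Of 150 log2 ratios at named ends under other settings, 27 moved beyond their counting interval and none of the called ones changed sign. With libraries scaled to equal totals (log2 shifts of -0.70 for Braf full medium and 0.19 for Braf Base medium), 2 ends gained in full medium over EV and 5 in Base over full medium, while body segments gained and lost numbered 20 and 42 in full medium over EV and 39 and 22 in Base over full medium. Subtracting the background gave 27 body gains in full medium (26 with the local background), and 5 gains and 29 losses (5 and 28) in Base over full medium. A pseudocount of 4 times the mean left 2 end gains in full and 3 in Base medium over EV (1.51% and 1.99% of all ends). Body gains and losses were then 8 and 3 in full medium over EV (0.163% and 0.0908% of all segments). They were 1 and 3 in Base over full medium (0.0427% and 0.122%), and 3 and 7 in Base medium over EV (0.134% and 0.265%). With the smaller pseudocount, 5 segments gained in Base over full medium (0.225% of all segments). A minimum of 1 times the mean gave 16 end gains and 693 body gains in full medium over EV (21.2% and 18.9% of all ends and segments), 8 end and 670 body losses in Base over full medium (17.8% and 18.2%), and 19 body gains in Base medium over EV (0.476%). A minimum of 5 times the mean left body gains and losses of 10 and 7, 1 and 6, and 6 and 15 in the 3 comparisons. The shares of all segments were 0.210% and 0.254%, 0.0920% and 0.242%, and 0.188% and 0.496%. Division by local dosage, added after seeing the data, gave 1 end gained in Base over full medium (1.02% of all ends), and a 2 kb window 1 lost (1.70%). The cause of these moves was not tested. All other counts stayed within 1.5 times.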
